A study of Schmidtea mediterranea with 60 samples.

Results

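The planarian Schmidtea mediterranea is a freshwater flatworm that regrows missing body parts from small fragments, and 200 of its transcript features are described here. Out of 36034 features measured in both whole bodies and tails, they were chosen by their measured level: it was lowest, against egfp RNAi, with both opa1 and drp1 RNAi in whole bodies labelled homo, without a like difference with sod2 RNAi. Whole bodies had opa1, drp1, sod2 or egfp RNAi and were taken at homo, which the sources used here do not explain, or at 1dpa (1 day post amputation). Tails had a pair of RNAi targets, opa1 with drp1 (combined RNAi tails), opa1 with egfp (opa1 RNAi tails) or egfp with egfp (control tails), and were taken at 0dpa, 6hpa (6 hours post amputation), 1dpa or 2dpa. RNAi against egfp, which codes for a jellyfish protein that planarians lack, is the control. Each of the 8 whole-body and 12 tail groups held 3 libraries. The labels give no strain or age. They also leave unsaid if replicates came from separate animals or from pools, so the spread behind each p-value is that between these samples and may be technical.

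Mitochondria fuse and divide all the time. Opa1 is a GTPase needed for fusion of the inner membrane, and Drp1 is a dynamin-related GTPase that pinches mitochondria apart, so loss of either disturbs the balance from opposite sides. Sod2 is the manganese superoxide dismutase of the mitochondrial matrix, which removes superoxide and takes no part in fusion or division. Planarians regrow from neoblasts, dividing stem cells spread through the body, and the series title places mitochondrial dynamics in whole-body regeneration.

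The choice went in steps. Whole-body counts were scaled to CPM (counts in a library scaled to the same total), and a difference at this step is between groups in log2(mean CPM + 1). The opa1 and drp1 differences from egfp RNAi at homo were both at or below -0.5 in 2324 features. Of these, 1415 had a sod2 difference above -0.3. In 1128 the control tails stayed within 1 log2 unit of 0dpa at every later time, on log2(mean + 10) of the deposited tail values. In 1073 the opa1 RNAi tails lay, on average over the 4 times, above -0.4 against control tails, and in 769 the opa1 difference at 1dpa was under 0.3. The 200 with the lowest larger difference, that is, the one nearer 0 of the opa1 and drp1 differences, were taken. The last inside, SMED30002724, SMED30028476 and SMED30021035, each had a larger difference of -0.67. So did the first outside, SMED30025694, SMED30019788 and SMED30004787, so the limit falls inside a continuum. The values of opa1, drp1, sod2 and egfp RNAi at homo, of opa1 and egfp RNAi at 1dpa, and of opa1 RNAi and control tails chose the features and are given below as a description. The libraries of drp1 and sod2 RNAi at 1dpa and of combined RNAi tails were not used.

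Feature IDs come without gene names in the files, so the IDs stand here without a function, the level of each targeted transcript is not given, and lists of genes of known function or cell type could not be counted. Whole-body libraries held 10610000 to 14330000 estimated counts, and tail libraries summed to 8345000 to 14470000 in the authors' scaled values. Replicates of a group correlated across features with r of 0.990 to 0.994 in whole bodies and 0.958 to 0.977 in tails, and no pair was identical. In bulk RNA, fewer cells of a type and less RNA per cell cannot be told apart.

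At homo the 200 features were about as low with opa1 RNAi as with drp1 RNAi, which the ranking by the larger of both differences favours. Their median difference from egfp RNAi was -0.84 with opa1 RNAi and -0.79 with drp1 RNAi, 1.78-fold and 1.72-fold lower on this scale. The added 1 compresses low features. As a ratio of mean CPM, the median member was 2.22-fold lower with opa1 RNAi and 2.05-fold lower with drp1 RNAi. Among the 18 members at 50 CPM or more in egfp RNAi bodies, opa1 RNAi gave ratios of 1.61 to 2.12 and drp1 RNAi 1.61 to 2.25. Among the 96 under 5 CPM, opa1 RNAi gave 1.90 to 6.91 and drp1 RNAi 1.87 to 13.7. The median over the 22889 features that passed the filter on low counts was itself below 0, at -0.16 and -0.13. With sod2 RNAi the median of the 200 was -0.17, against 0.01 over all features. The median difference of opa1 from drp1 RNAi over them was -0.04.

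Summed over the 200 features, opa1 RNAi bodies at homo held 1673, 1697 and 1860.0 CPM, and drp1 RNAi bodies held 1685, 1906 and 1802 CPM. The sod2 RNAi bodies held 3137, 3061 and 2926 CPM, and the egfp RNAi bodies 2904, 3180.4 and 3942 CPM. All opa1 and drp1 RNAi libraries lay below all sod2 and egfp RNAi libraries, whereas the sod2 RNAi libraries lay inside the range of the egfp RNAi ones. These homo values chose the features, which builds in this order. The egfp RNAi replicate 3 stood above the other controls. Its median over the members was 0.22 above the control mean in log2, while replicates 1 and 2 lay at -0.17 and -0.09. Over all features tested these medians were 0.05, -0.06 and -0.01.

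**Figure D1:**
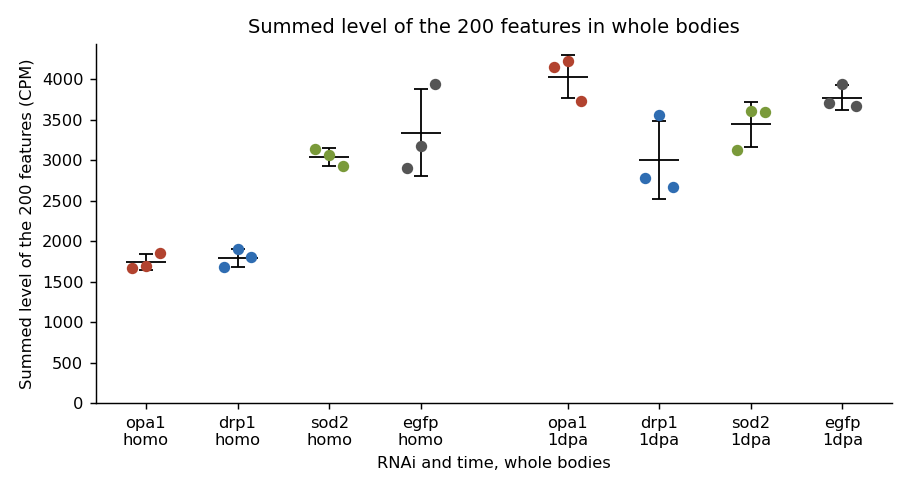
Summed level of the 200 features in each whole-body library, in CPM on a linear axis from 0, for opa1, drp1, sod2 and egfp RNAi at homo (left) and 1dpa (right). Points are libraries, long bars are means and error bars are SD (n = 3). By choice, opa1 and drp1 RNAi stand lowest at homo, at 1743 ± 102 and 1798 ± 110.2 CPM. At 1dpa drp1 RNAi has the lowest mean, at 3008 ± 481 CPM.

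The membership rests in part on that control library. Without egfp RNAi replicate 3 at homo, 517 features were eligible, 102 of the 200 stayed among the first 200, and 173 still had both differences at or below -0.5. Without egfp RNAi replicate 1 or replicate 2, 105 and 124 of the 200 stayed among the first 200. Leaving out any single opa1 or drp1 RNAi library at homo kept 156 to 177 of them there, and any single sod2 RNAi library 153 to 164. With TMM-scaled CPM, 348 features were eligible and 152 of the 200 stayed. These alternatives were chosen after seeing the data.

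SMED30030739 ranked first. Its level at homo was 1.37, 1.26 and 1.82 CPM with opa1 RNAi and 1.51, 1.41 and 2.34 CPM with drp1 RNAi. In sod2 RNAi bodies it was 3.93, 4.14 and 4.17 CPM, and in egfp RNAi bodies 3.99, 5.50 and 5.64 CPM. No opa1 or drp1 RNAi library reached the lowest sod2 or egfp RNAi library.

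SMED30016287 was the most abundant of the 200 per length. Its level at homo was 119, 124 and 129.9 CPM with opa1 RNAi, 147, 174 and 160.3 CPM with drp1 RNAi, 248, 228 and 223 CPM with sod2 RNAi and 223, 237 and 333 CPM with egfp RNAi. Its opa1 RNAi libraries all lay below its drp1 RNAi libraries.

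The members at the ends of the comparison between opa1 and drp1 RNAi were low features. SMED30002680, lowest with opa1 relative to drp1 RNAi, stood at 1.48 ± 0.0635 CPM with opa1 RNAi and 2.56 ± 0.441 CPM with drp1 RNAi at homo, against 4.79 ± 1.58 CPM with egfp RNAi (SD, n = 3 each). SMED30027334, at the other end, stood at 1.76 ± 0.164 CPM with opa1 RNAi and 1.07 ± 0.275 CPM with drp1 RNAi, against 3.74 ± 1.24 CPM with egfp RNAi (SD, n = 3 each).

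The 200 were not abundant transcripts. Their median level in egfp RNAi bodies at homo was 5.04 TPM (a level per length, scaled to the same total in each whole-body library). Over all tested features it was 6.11 TPM, and 79 of the 200 lay above that median. On the CPM scale, 96 members lay under 5 CPM, 86 from 5 to under 50 CPM and 18 at 50 CPM or more. Their effective length, taken from the ratio of counts to TPM on a relative scale, had a median of 1.25, against 0.954 over all tested features.

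At 1dpa the members' level differed between the RNAi groups. With opa1 RNAi the median difference from egfp RNAi was 0.11, close to the 0.09 over all features, and the upper limit of 0.3 in the choice bounds it. From homo to 1dpa the members' median moved by 1.02 with opa1 RNAi (199 of 200 higher at 1dpa) and by 0.59 with drp1 RNAi (190 of 200), but by 0.13 with sod2 RNAi and 0.06 with egfp RNAi. Over all tested features the medians were 0.32 with opa1 RNAi (72.0% higher at 1dpa), 0.18 with drp1 RNAi (69.5%), 0.04 with sod2 RNAi and 0.06 with egfp RNAi. The members' medians rest on homo values that chose the features. The summed level at 1dpa was 4035 ± 269 CPM with opa1 RNAi, 3008 ± 481 CPM with drp1 RNAi, 3445 ± 276 CPM with sod2 RNAi and 3775 ± 152 CPM with egfp RNAi (SD, n = 3 each).

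**Figure D2:**
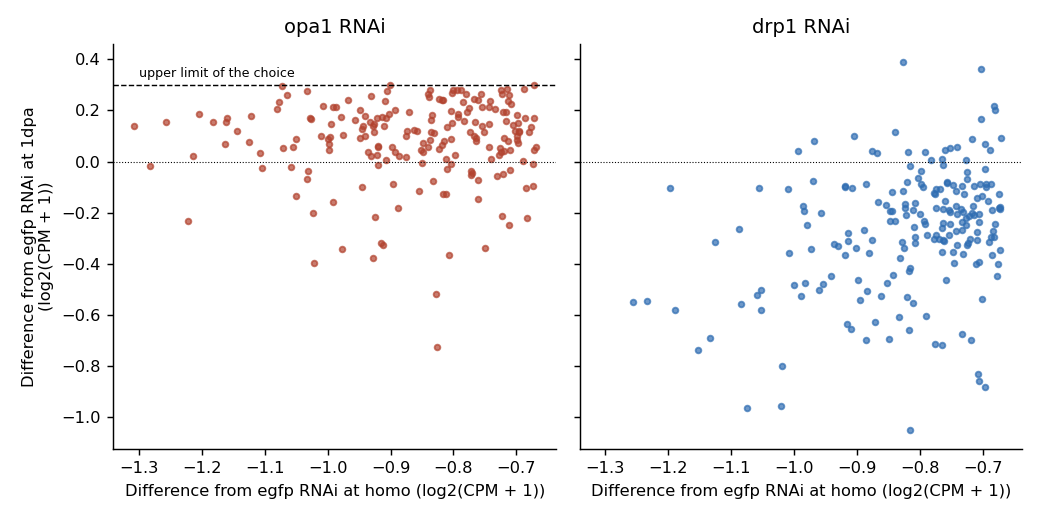
Difference from egfp RNAi at 1dpa (vertical) against that at homo (horizontal), in log2(mean CPM + 1), for the 200 features with opa1 RNAi (left) and drp1 RNAi (right), each point being 1 feature. All points lie at or left of -0.67 by choice, the opa1 points sit under the dashed limit of 0.3 with a median of 0.11, and 177 of the 200 drp1 points lie below 0.

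The first question that the choice left free is whether the features were lower with drp1 RNAi at 1dpa as well. Features were tested with edgeR's quasi-likelihood test on all 22889, and one is called when its Benjamini-Hochberg adjusted p is under 0.05. All 200 members passed the filter on low counts. Of them 29 (14.5%) fell in drp1 RNAi against egfp RNAi bodies and 0 rose, where 3.36% of all features were called lower and 3.83% higher. At an unadjusted p under 0.05, 67 members were lower and 1 was higher, where 9.07% of all features were lower and 11.04% higher. DESeq2 called 35 members lower and 0 higher, of 1779 features called in all, 926 of them higher. The median log2 fold change was -0.29 over the members and 0.01 over all features, and 179 members (89.5%) lay below 0, as did 48.9% of all features. In 55 members (27.5%) every drp1 RNAi library lay below every egfp RNAi library, as did 10.1% of all features, and in 1 member every library lay above, as did 13.4%. The egfp RNAi libraries at 1dpa entered the choice through the limit on the opa1 difference, which favours features that are high in them. Over all 22889 features, the drp1 difference at homo and this fold change at 1dpa had r = 0.35 and rho = 0.37. Across the members these were 0.21 and 0.24. Features low with drp1 RNAi at homo thus tended to be lower at 1dpa in general. Neither here nor against sod2 RNAi were the members set against features equally low at homo.

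The share called was highest among abundant features, in the members and in all features alike. At 50 CPM or more, 8 of 18 members fell (44.4%), against 9.28% of all features at that level. From 5 to under 50 CPM, 14 of 86 fell (16.3%), against 3.72%. Under 5 CPM, 7 of 96 fell (7.29%), against 0.918%. The members' median log2 fold changes were -0.28, -0.29 and -0.34 in the same order. The drp1 RNAi libraries themselves were uneven. Over the 200 members, replicates 1, 2 and 3 had medians of -0.34, -0.07 and -0.43 against the egfp RNAi mean in log2, and summed levels of 2788, 3559.9 and 2676 CPM. Replicate 2 lay nearest the controls. Without it 44 members fell, whereas 16 fell without replicate 1 and 14 without replicate 3, and 16 without egfp RNAi replicate 2. On the deposited TPM table, tested with limma, 17 fell and 0 rose, and 74.3% of the calls over all features were higher there, against 53.3% by edgeR.

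**Figure D3:**
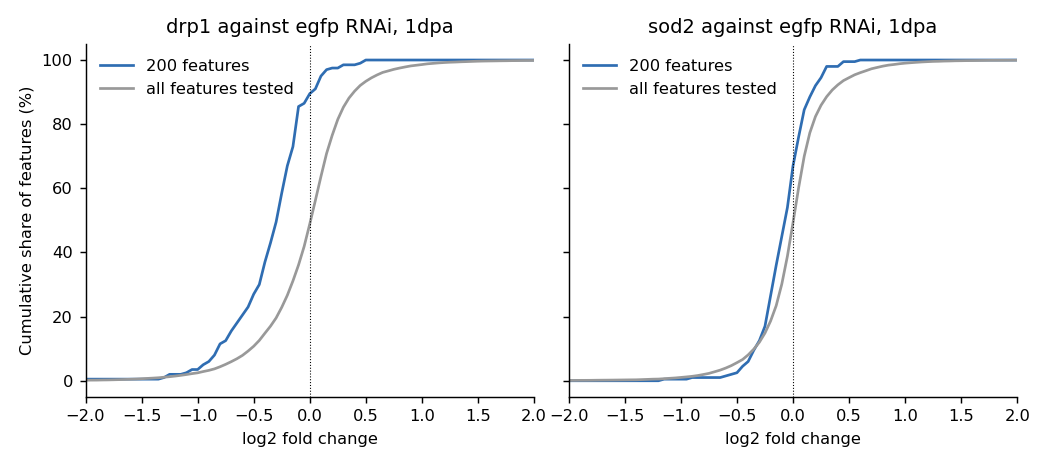
Cumulative share of features (%) by log2 fold change at 1dpa in drp1 RNAi (left) and sod2 RNAi (right) against egfp RNAi, for the 200 features (blue) and all 22889 tested (grey). With drp1 RNAi the 200 lie left of all features over most of the range, with medians of -0.29 and 0.01, and with sod2 RNAi the lines are closer, with medians of -0.08 and 0.00.

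SMED30027498 was one of the 29. Its level at 1dpa was 17.5, 21.8 and 21.1 CPM in drp1 RNAi bodies, against 33.6, 36.3 and 25.6 CPM in egfp RNAi bodies. The groups did not overlap. It fell 1.59-fold, a log2 fold change of -0.67 ± 0.11 (standard error, SE; edgeR, adjusted p = 0.000142).

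SMED30008487 was lower in the same way. Its level was 149, 185 and 125 CPM in drp1 RNAi bodies, against 232, 261 and 250.5 CPM in egfp RNAi bodies. It fell 1.63-fold, a log2 fold change of -0.71 ± 0.12 (SE; edgeR, adjusted p = 0.000137). SMED30005617 stood at 79.8, 97.6 and 74.6 CPM in drp1 RNAi bodies, against 118, 126 and 114 CPM in egfp RNAi bodies. Every drp1 RNAi library was lower, and the feature fell 1.43-fold, a log2 fold change of -0.52 ± 0.09 (SE; edgeR, adjusted p = 0.000262).

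SMED30007746 had the lowest fold change of the 29 and is a rare transcript. It had 2, 3 and 0 counts in drp1 RNAi bodies, against 12, 11 and 21 in egfp RNAi bodies, and its log2 fold change was -2.92 ± 0.77 (SE; edgeR, adjusted p = 0.0158). That call rests on few counts and was lost in 4 of 13 alternatives, DESeq2 among them, with adjusted p of 0.0085 to 0.118. SMED30022316 was the next lowest. It had 27, 44 and 16 counts in drp1 RNAi bodies, against 88, 71 and 82 in egfp RNAi bodies. It fell 2.53-fold, a log2 fold change of -1.34 ± 0.26 (SE; edgeR, adjusted p = 0.000753), and the call was kept in all 13 alternatives.

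Of the 10 members first in rank, 9 had a log2 fold change below 0 and 2 were called, with a range of -0.87 to 0.13. Of the 5 most abundant per length, 5 lay below 0 and 2 were called, with a range of -0.71 to -0.22. SMED30030739, the first in rank, stood at 2.27, 3.75 and 2.85 CPM in drp1 RNAi bodies at 1dpa, against 4.28, 7.06 and 4.82 CPM in egfp RNAi bodies. It fell 1.83-fold (edgeR, adjusted p = 0.0153). SMED30016287, the most abundant, stood at 252, 323 and 218 CPM, against 292, 308 and 313 CPM, with 1 drp1 RNAi library above all controls, and was not called (edgeR, log2 fold change -0.22, SE 0.10, adjusted p = 0.220).

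**Figure D4:**
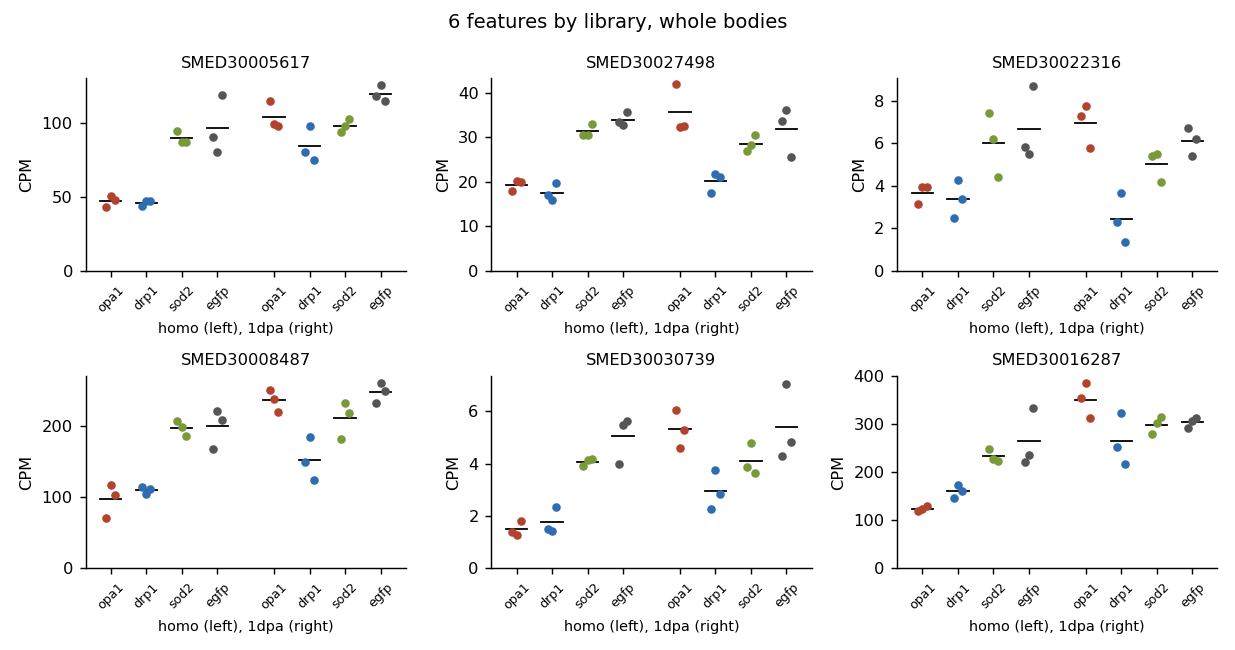
Level in CPM of 6 features in each whole-body library, for opa1, drp1, sod2 and egfp RNAi at homo (left in each panel) and 1dpa (right), with points for libraries and bars for means (n = 3). In SMED30027498 the drp1 RNAi libraries are low at both times, between 16.0 and 21.8 CPM, and in SMED30016287 the drp1 RNAi libraries at 1dpa, 218 to 323 CPM, overlap the egfp RNAi ones.

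Drp1 and sod2 RNAi at 1dpa were set against each other with libraries that had no part in the choice. Of the 200 members, 13 (6.5%) fell in drp1 RNAi against sod2 RNAi bodies and 0 rose, where 2.49% of all features were called lower and 2.08% higher (edgeR). At an unadjusted p under 0.05, 54 members were lower and 1 was higher, where 7.95% of all features were lower and 9.13% higher. The median log2 fold change was -0.24, against 0.01 over all features, and 163 members (81.5%) lay below 0, as did 47.8% of all features. In 40 members (20%) every drp1 RNAi library lay below every sod2 RNAi library, as did 8.63% of all features, and in 1 member every library lay above, as did 13.2%. The count was 25 without drp1 RNAi replicate 2 and 8 on the TPM table. Here SMED30027498 stood at 17.5, 21.8 and 21.1 CPM in drp1 RNAi bodies and 26.9, 28.2 and 30.6 CPM in sod2 RNAi bodies, without overlap, a 1.45-fold fall (edgeR, adjusted p = 0.00387). SMED30029342 stood at 19.1 ± 2.63 CPM in drp1 RNAi bodies and 27.2 ± 0.377 CPM in sod2 RNAi bodies (SD, n = 3 each; edgeR, adjusted p = 0.00325).

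With sod2 RNAi against egfp RNAi at 1dpa, edgeR called 0 of the 200 members and so did DESeq2, where 0.179% of all features were called lower and 0.214% higher. At an unadjusted p under 0.05, 13 members were lower and 0 were higher, where 3.64% of all features were lower and 3.63% higher. The median log2 fold change was -0.08, against 0.00 over all features, and 134 members (67%) lay below 0, as did 49.3% of all features. In 27 members (13.5%) every sod2 RNAi library lay below every egfp RNAi library, as did 8.31% of all features, and in 1 member every library lay above, as did 6.33%. The choice bounds the sod2 difference at homo from below, and the egfp RNAi libraries at 1dpa entered it.

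In tails the members were tested where opa1 and drp1 RNAi were combined. The values are a signal that the authors scaled between libraries, so limma on log2(value + 1) was used for the 20681 features that reached 10 in 3 or more libraries, of which 186 were members, and fold changes of low features are understated. Control tails are flat over time by choice, and opa1 RNAi tails are bounded from below. Averaged over the 4 times, 4 members fell in combined RNAi against control tails and 0 rose, where 1.11% of all features were called lower and 0.866% higher. At an unadjusted p under 0.05, 19 members were lower and 3 higher, where 5.93% of all features were lower and 7.002% higher. The median log2 fold change was -0.02, against 0.01 over all features. Of all calls 43.8% were higher, against 33.5% when rescaled by TMM and 22.7% without the most abundant feature, where 4 and 6 members fell and 0 rose. The count was 7 without control 6hpa replicate 2 (5 lower, 2 higher) and 1 on the TPM table. The 4 are 2.15% of the members tested, and the medians of members and all features lay close together, so the 4 are described one by one and not as a result about the 200.

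SMED30027498 was the first of these. At 0dpa it stood at 254, 202 and 213 in combined RNAi tails, against 336, 214 and 286 in opa1 RNAi tails and 244, 282 and 278 in control tails. At 2dpa it stood at 96.7, 99.6 and 97.7 in combined RNAi tails, 231, 287 and 207 in opa1 RNAi tails and 127, 175 and 178 in control tails. The groups overlapped at 0dpa, and at 2dpa every combined RNAi library lay below all others. Over the 4 times it was 1.52-fold lower than in control tails and 1.70-fold lower than in opa1 RNAi tails (limma, adjusted p = 3.87e-05 and 3.66e-07). Between its own times in combined RNAi tails it also fell against 0dpa, with a log2 fold change of -0.78 at 6hpa, then -1.10 at 1dpa, then -1.17 at 2dpa (limma, highest adjusted p = 0.00042).

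SMED30005617 stood at 314, 323 and 338 in combined RNAi tails at 2dpa, 401, 522 and 451 in opa1 RNAi tails and 463, 473 and 452 in control tails. At 6hpa it stood at 571, 717 and 619.7 in combined RNAi tails, 498, 459.6 and 479.6 in opa1 RNAi tails and 759.7, 597 and 606 in control tails. The combined RNAi libraries were therefore lowest at 2dpa but above the opa1 RNAi ones at 6hpa. Over the 4 times it fell 1.39-fold against control tails (limma, log2 fold change -0.48, SE 0.09, adjusted p = 0.000725).

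SMED30033962 fell 1.55-fold against control and 1.57-fold against opa1 RNAi tails (limma, adjusted p = 0.00563 and 0.00365). At 6hpa its level was 98.0, 70.7 and 79.7 in combined RNAi tails, against 137, 142 and 129 in opa1 RNAi tails and 169.6, 121 and 199.5 in control tails, without overlap. SMED30031161 fell 1.36-fold against control and 1.38-fold against opa1 RNAi tails (limma, adjusted p = 0.0153 and 0.0111). Its level at 2dpa was 101, 120.3 and 85.8 in combined RNAi tails, 164, 233 and 205 in opa1 RNAi tails and 143, 183 and 173 in control tails. In whole bodies at 1dpa, SMED30033962 and SMED30031161 had adjusted p of 0.0521 and 0.0517 for drp1 against egfp RNAi by edgeR.

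SMED30005617 and SMED30027498 were the members called lower both with drp1 RNAi at 1dpa in whole bodies and in combined RNAi against control tails, experiments that share no library. They are 2 of the 29 (6.90%) and 2 of the 4 (50%). Over the 20115 features tested in both experiments, 55 were called lower in both, 7.76% of the 709 lower with drp1 RNAi and 23.9% of the 230 lower in combined RNAi tails. Across the 186 members the fold changes of these comparisons had r = 0.03 and rho = 0.05, a description across features that are not independent.

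Drp1 RNAi is what the combined RNAi tails have in addition to opa1 RNAi tails. Against the latter, 3 members (1.61%) fell and 3 (1.61%) rose, where 0.977% of all features were called lower and 0.808% higher (limma). Both comparisons share the combined RNAi libraries. The median log2 fold change was 0.15, against 0.03 over all features, and 133 of the 186 (71.5%) lay above 0, as did 59.0% of all features. The opa1 RNAi tails were themselves lower than control tails in the 200. On log2(mean + 10) their median differences were -0.16, -0.10, -0.08 and -0.13 in order of time. Over all features these were -0.02, -0.02, -0.01 and -0.03. For combined RNAi against control tails the members' medians were -0.10, 0.02, -0.06 and -0.01. Tested on TPM, 5 members fell and 0 rose, and 4.39% of the calls over all features were higher. That share was 45.3% in the scaled values, 27.7% when rescaled by TMM and 32.9% without the most abundant feature. The tail TPM libraries had unequal totals and were not rescaled. Leaving out single libraries gave 3 to 4 falls and 1 to 6 rises. The members that fell were SMED30027498, SMED30033962 and SMED30031161. The members that rose were SMED30016287, SMED30027610 and SMED30032637. SMED30032637 stood at 90.0, 94.8 and 101 in combined RNAi tails at 2dpa, 64.0, 60.4 and 63.3 in opa1 RNAi tails and 84.0, 119 and 96.5 in control tails. The combined RNAi libraries lay above the opa1 RNAi ones and among the controls. Its log2 fold change against opa1 RNAi tails over the 4 times was 0.45 ± 0.10 (SE; limma, adjusted p = 0.0095). SMED30016287 rose by 0.27 (adjusted p = 0.0352), a call lost in 16 of 32 alternatives, and SMED30027610 by 1.22 (adjusted p = 0.0346), lost in 14 of 31.

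Over time the members stood highest late in combined RNAi tails, as a share of the library. Their summed level was 18229 ± 1606 at 0dpa and 24273 ± 1213 at 6hpa (SD, n = 3 each). It was 18533 ± 1163 at 1dpa, then 23306 ± 1026 at 2dpa (SD, n = 3 each). As a share of the library this was 0.185%, 0.185%, 0.205% and 0.272% in order of time, so the high sum at 6hpa was not a high share.

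At 2dpa against 0dpa, 6 members (3.23%) fell and 37 (19.9%) rose in combined RNAi tails, where 6.90% of all features were called lower and 10.2% higher (limma). The median log2 fold change was 0.48, against 0.09 over all features. At 1dpa against 0dpa, 16 members (8.60%) fell and 14 (7.53%) rose, where 4.18% and 5.24% of all features were called. The medians were 0.32 over the members and 0.06 over all. At 6hpa against 0dpa, 28 members (15.1%) fell and 38 (20.4%) rose, both below the 29.2% and 23.6% of all features called. The medians were -0.04 over the members and -0.19 over all. The choice held control tails within 1 log2 unit of 0dpa at each of these times, which favours fewer calls.

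The RNAi groups had a like difference at 2dpa. On log2(mean + 10) over all 200, the median difference of 2dpa from 0dpa was 0.33 in combined RNAi tails, 0.29 in opa1 RNAi tails and 0.29 in control tails. At 1dpa it was 0.19, 0.23 and 0.17. Control tails could not move by more than 1 in the choice.

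Single libraries moved these counts. At 1dpa the total of 30 was 14 without 0dpa replicate 1, 16 without 1dpa replicate 1 and 13 without 1dpa replicate 2. At 2dpa the total of 43 was 27 without 2dpa replicate 1, 71 with only the libraries compared and 67 of 133 tested on the TPM table. Over all features, 4902 were called with only the libraries compared and 5843 on the TPM table, against 3546 in the main fit.

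The split between rises and falls depended on scaling at 6hpa and 1dpa. With the most abundant feature left out and libraries rescaled, 47 members fell and 32 rose at 6hpa, 14 fell and 22 rose at 1dpa, while 4 fell and 62 rose by 2dpa. All features moved the same way under this scaling: 33.6%, 72.7% and 81.8% of their calls were higher at these times, against 44.6%, 55.6% and 59.8% as deposited. On the TPM table, where 133 members were tested, 38 fell and 12 rose at 6hpa, 2 fell and 28 rose at 1dpa, while 0 fell and 67 rose by 2dpa. Of the calls over all features there, 25.05%, 91.7% and 94.9% were higher. The tail TPM libraries summed to 473900 to 744500 and were not rescaled to a common total. What the unequal totals add to these shares was not tested. TMM rescaling gave 24 falls and 40 rises at 6hpa, 17 and 10 at 1dpa, then 7 and 34 by 2dpa, with 47.7%, 38.5% and 44.3% of all calls higher. The median over all features was -0.41, 0.14 and 0.23 without the most abundant feature and -0.44, 0.22 and 0.34 on the TPM table, in order of time, and the members' medians there were -0.27, 0.39 and 0.62, and -0.24, 0.34 and 0.59.

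**Figure D5:**
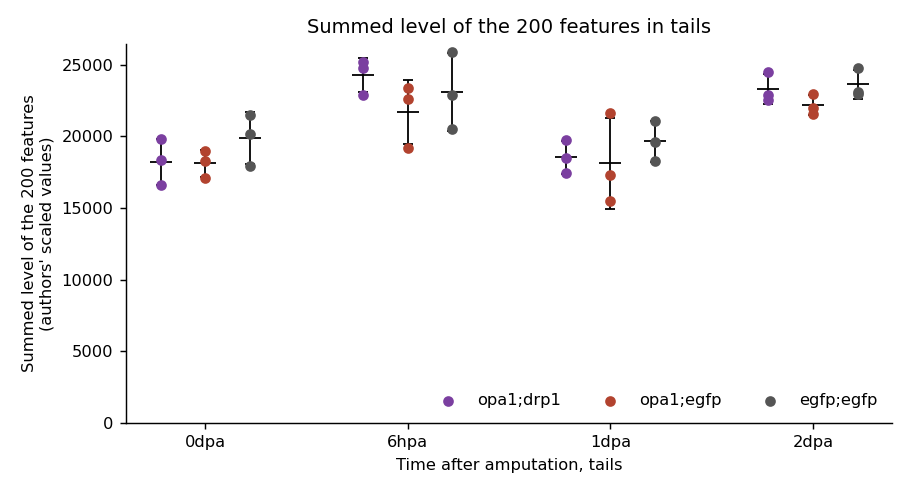
Summed level of the 200 features in each tail library, in the authors' scaled values on a linear axis from 0, at 0dpa, 6hpa, 1dpa and 2dpa, for opa1;drp1 (combined RNAi, purple), opa1;egfp (opa1 RNAi, red) and egfp;egfp (control, grey). Points are libraries, long bars means and error bars SD (n = 3); the 3 RNAi groups overlap at every time, with means of 23306, 22173 and 23613 at 2dpa.

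Single members followed other courses. SMED30012330 stood at 6.47, 2.67 and 0 at 0dpa in combined RNAi tails, 17.2, 51.7 and 46.9 at 6hpa, 6.44, 1.59 and 6.41 at 1dpa, then 17.7, 18.5 and 21.0 by 2dpa. Its mean was highest at 6hpa, with 1 library there below those of 2dpa, and low at 1dpa, with log2 fold changes against 0dpa of 3.57 at 6hpa (limma, adjusted p = 6.85e-06) and 2.73 by 2dpa (limma, adjusted p = 0.00164). These rest on 0dpa values near the floor. Control tails had means of 6.73, 17.2, 4.07 and 17.0 in order of time, and opa1 RNAi tails 7.22, 22.3, 4.90 and 5.21. The rise at 6hpa was therefore not particular to combined RNAi tails. SMED30029342 stood at 171, 153 and 214 at 0dpa in combined RNAi tails, 147, 93.2 and 134 at 6hpa, 83.6, 86.9 and 112 at 1dpa, then 66.7, 87.6 and 75.5 by 2dpa. Every library at the later times lay below every library at 0dpa, and the feature fell 2.32-fold by 2dpa (limma, adjusted p = 7.56e-05). Its levels in control and opa1 RNAi tails are not given here, so the fall cannot be read as particular to combined RNAi tails.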

How the data were processed

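RNA was taken up with TRIGene and made into libraries with an NEBNext kit, per the labels' protocols. The authors deposited estimated counts for whole bodies, a signal for tails already scaled between libraries, and TPM tables for both. The table names give kallisto. The sources used here do not give its version, index, build or the tail scaling. Of the estimated counts, 89.8% to 91.5% per library were whole, and they were rounded. They were tested with edgeR 4.0.16 (TMM, filterByExpr, quasi-likelihood) over 24 libraries and 8 group means. Tail values were tested with limma 3.58.1 (mean-dependent prior) on log2(value + 1) over 36 libraries and 12 group means, since they are not counts. Adjustment was by Benjamini-Hochberg over all features of a comparison. Scripts were tested on simulated data. DESeq2 1.42.0, the TPM tables (the tail one holds 27444 features) and the alternatives of the closing section were recomputed. Tail TPM libraries summed to 473900 to 744500 and were tested without rescaling to a common total. Members and lists were chosen with earlier results of these data known. Members named are the first in rank, the most abundant per length, the called members with the lowest and highest fold changes, those at the limit of the choice, and the ends of the opa1 and drp1 comparison.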

Additional observations from a re-analysis of the deposited data

Results flagged for a closer look

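For 35 named members, 6 contrasts between times were looked through for differences in which every library lay on one side of its controls at one time and on the other side at another. There were 8, none of which was tested, and all are differences of log2 values. How often such differences occur over all features was not counted. The 8 are therefore a description of single features and no result about the members. Groups of 3 libraries were too small to look for single outlying libraries.

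In whole bodies with opa1 RNAi against egfp RNAi, SMED30016287 was lower at homo (-1.08) and higher at 1dpa (0.21), a change of 1.288, and SMED30031161 was lower at homo (-0.73) and higher at 1dpa (0.21), a change of 0.94. The homo values chose these features.

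In combined RNAi against opa1 RNAi tails, SMED30005617 was higher at 6hpa (0.40) and lower at 2dpa (-0.48), a change of -0.8845, and SMED30008487 was higher at 6hpa (0.27) and lower at 2dpa (-0.18), a change of -0.4528.

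In combined RNAi against control tails, SMED30022316 was lower at 0dpa (-0.33) and higher at 1dpa and 2dpa, changes of 0.7196 and 0.8972. SMED30013272 was higher at 0dpa (0.38) and lower at 1dpa (-0.29), a change of -0.6727. SMED30026906 was lower at 6hpa (-0.39) and higher at 2dpa (0.31), a change of 0.7001.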

How the results depend on the processing

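Counts of members called are given here. In drp1 against egfp RNAi bodies at 1dpa the TPM table gave 17 and the first 100 of the ranking 18, and in drp1 against sod2 RNAi the TPM table gave 8. Over all features the TPM table gave 1924 and 934 calls, against 1645 and 1047 in the main fit. In sod2 against egfp RNAi, a fit of only the libraries compared gave 2, and members chosen without egfp RNAi homo replicate 1 or 3 gave 1. The fit of only the libraries compared called 208 features in all, against 90 in the main fit. In combined against control tails the TPM table gave 1 of 133 members tested, with 212 features called in all, against 409 in the main fit. In combined against opa1 RNAi tails the first 100 gave 3, and so did members chosen with TMM-scaled CPM. In combined RNAi tails against 0dpa, the first 100 had 37 called at 6hpa, then 18 at 1dpa, then 23 at 2dpa, while members chosen with TMM-scaled CPM gave 16 at 1dpa. At 2dpa, 66 were called without the most abundant feature, 71 with only the libraries compared and 67 of 133 tested on the TPM table. Over all features these settings called 4295, 4902 and 5843, against 3546 in the main fit, so calls rose in general. The first 100 hold fewer members by construction. The alternatives that choose members anew were chosen after seeing the data.

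Leaving out each library in turn gave 14 to 44 for drp1 against egfp RNAi, 9 to 25 for drp1 against sod2 RNAi, 0 to 0 for sod2 against egfp RNAi, 4 to 7 for combined against control tails, 4 to 9 for combined against opa1 RNAi tails, and 58 to 73, 13 to 24 and 27 to 42 at 6hpa, 1dpa and 2dpa. The 7 came without control 6hpa replicate 2, the 9 without opa1 RNAi 1dpa replicate 2, the 13 without combined 1dpa replicate 2 and the 27 without combined 2dpa replicate 1. Calls over all features in these fits are not given here, so the changes cannot be read as particular to the members.

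The labels do not say if replicate numbers pair the samples, and the main fits used no pairing. In no comparison did all same-numbered libraries deviate together with r over 0.1, which cannot show that samples were unpaired. With the replicate block the counts, in the same order, were 33, 13, 0, 4, 6, 68, 30 and 45. Of 533 alternatives for 28 results of named members, 465 kept the call, 68 lost it and 0 reversed. The cause of the changes was not tested. Of the members, 96 lay under 5 CPM, where single counts weigh most in a level.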
